A study of Drosophila melanogaster with 8 samples.

Results

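Convergent start site pairs are places where transcription starts on both strands within a short stretch and the RNAs run toward each other, with the plus strand start on the left and the minus strand start on the right. They were taken from cap analysis of gene expression (CAGE) in S2 cells, an established line from Drosophila melanogaster embryos. In CAGE the 5′ ends of capped RNAs are sequenced, and each tag gives the base and strand where an RNA began. Nearby tags were clustered into tag clusters (TCs) with a summit at the position of most tags. Each TC was taken as a start site. The threshold for background noise that the study used was not applied, and 5′ ends of another origin were not set apart. Only TCs that reached 0.5 TPM (tags of a library scaled to a total of 1000000) on average over the 8 libraries were considered, and among these a pair was formed when the nearest minus strand TC to a plus strand TC, looking to either side, had its summit 20 to 300 bp to the right. Only chromosome arms 2L up to position 22000000 and 3L without its centromere-proximal end were used. The members were thus selected on the distance between summits and on the mean level over all libraries, and these values are given as a description. This yielded 1144 pairs made of 1144 plus TCs and 813 minus TCs, since a minus TC can be the nearest of several plus TCs. The count depended on this reading, and 244 pairs were left when TCs of any level could be the nearest. These 1957 TCs are 14.1% of the 13831 TCs of that level on the same stretches, and the whole series holds 39028 TCs of that level among 688364 TCs of any level.

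The 8 libraries form 2 groups of 4. The sample labels name them KD, for knockdown, and control. Per the study's methods, cells of the exosome knockdown received double-stranded RNA against the exosome subunits Dis3 and Rrp6. Control cells received double-stranded RNA against GFP, a jellyfish gene absent from flies. In both, 40 µg of RNA was given at 27 °C, the treatment was repeated after 2 days and cells were harvested 4 days after its start. The labels of the 2 groups run opposite to the expression table that accompanies the study. The total of each library turned every value of a single column of that table into whole tags, and no other column came above 16.8% whole. The columns so matched are those of the knockdown for the libraries labelled control and those of GFP for the libraries labelled exosome knockdown. The libraries are therefore called by their labels throughout, every log2 fold change is that of libraries labelled control over libraries labelled exosome knockdown, and a higher level in libraries labelled control is, by the table match, a higher level after exosome depletion. The transcripts of Rrp6 and Dis3 could not be located without an annotation and give no further check of the groups here.

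Libraries labelled control held between 36806292 and 46388382 tags and those labelled exosome knockdown between 33565925 and 43903483 tags, so that 0.5 TPM stands for 16.8 tags in the shallowest library and 23.2 tags in the deepest. Libraries were sequenced in pools of 4 and the pool of each library is not named, so pool and group cannot be told apart if they coincide. The labels number the replicates without describing separate cultures, and p-values measure the spread between these libraries. No gene annotation or genome sequence of the build used, dm3, was at hand. The pairs are therefore given by position, with no genes named, and S2 marker genes were not examined.

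In divergent initiation, RNAs run away from a shared open region. The study reports it for most active enhancers far from genes and for a considerable part of gene promoters in this fly. The RNA on the less productive side is often short lived. The exosome degrades such RNAs from their 3′ end, and Dis3 and Rrp6 are its catalytic subunits. In convergent initiation the polymerases face each other, so that both transcripts cover the stretch between the start sites and are antisense to each other there. The study found convergent transcription at only a small share of open regions, a unit that was not used here.

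The distance between the summits had a median of 125 bp, with the middle 50% of pairs between 62 and 209 bp. Short distances were the most frequent, with 160 pairs at 20 to 39 bp and 110 pairs at 40 to 59 bp, against 53 pairs at 280 to 300 bp. In 159 pairs the spans of the TCs themselves overlapped. For comparison, the same limits were applied to 1301 divergent pairs, in which the nearest minus TC lay to the left of the plus TC, and to 6156 neighbours on a strand. The share at 20 to 39 bp was 14.0% of convergent pairs, 10.1% of divergent pairs and 14.7% of neighbours on a strand. Divergent pairs had a further 7.69% at 280 to 300 bp, where convergent pairs had 4.63%. The differences between the arrangements were not tested.

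**Figure D1:**
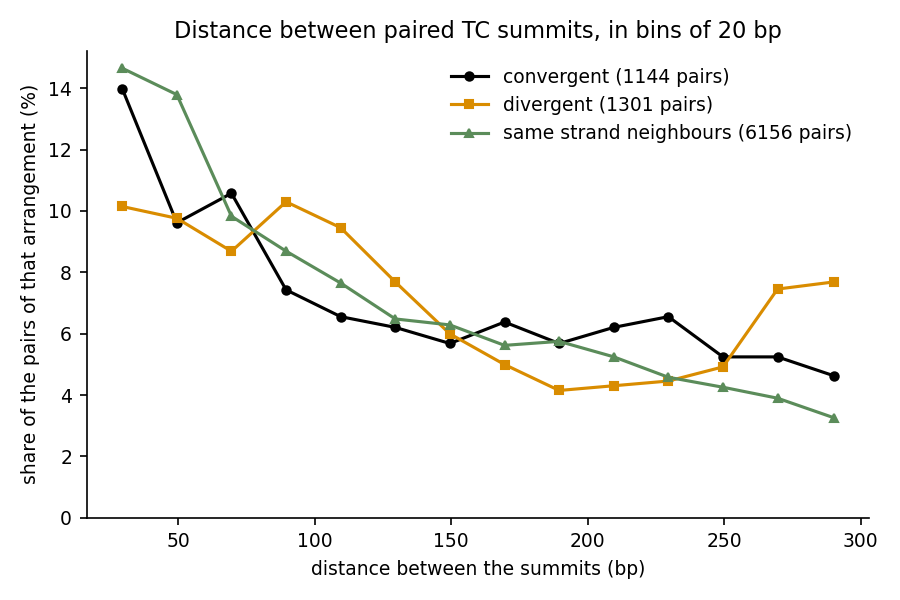
Share of pairs in % (vertical axis) by the distance between summits in bp (horizontal axis), in bins of 20 bp, for convergent pairs (circles), divergent pairs (squares) and neighbours on the same strand (triangles). Convergent pairs start at 14.0% at 20 to 39 bp and lie between 4.63% and 6.56% from 100 bp on.

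Most pairs were weak on both strands. The weaker TC of a pair had a median of 0.741 TPM over the 8 libraries and the stronger TC a median of 1.70 TPM, and in 666 pairs both TCs stayed under 2 TPM. Only 4 pairs had both TCs at 5 TPM or more and 1 pair had both at 10 TPM or more. The stronger TC reached 50 TPM in 35 pairs. The ratio of stronger to weaker TC had a median of 1.94 and was 10 or more in 88 pairs. The plus TC was the stronger in 626 pairs and the minus TC in 518. The median level of the paired TCs was 1.04 TPM, against 1.36 TPM for the other TCs on the same stretches, and 90% of paired TCs lay under 4.60 TPM where 90% of the others lay under 43.5 TPM. The level is part of the rule, so these differences are a description.

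**Figure D2:**
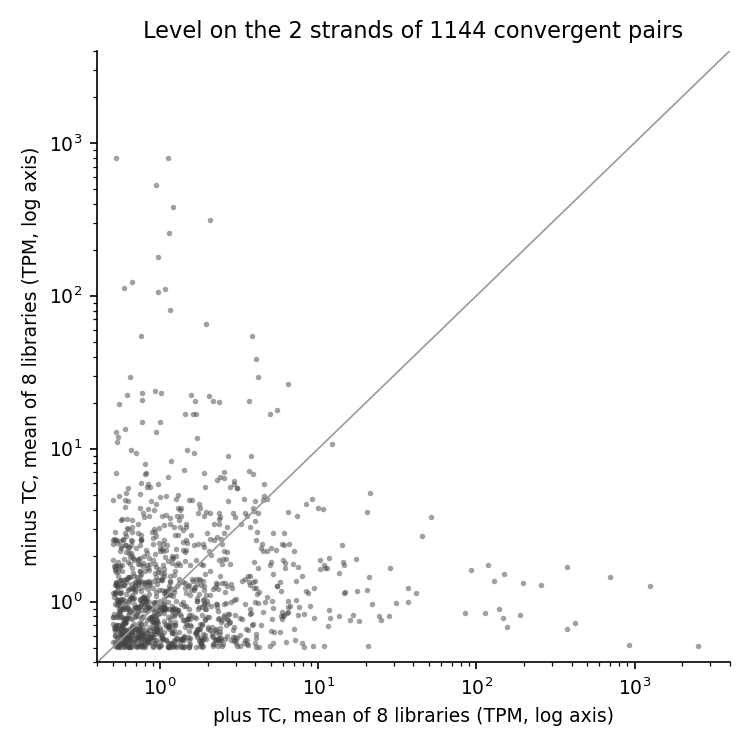
Mean level over the 8 libraries of the minus TC (vertical axis, TPM, log scale) against that of the plus TC (horizontal axis, TPM, log scale) for each of the 1144 pairs; the line marks equal levels. Strong TCs, up to 2515 TPM, face partners near the lower limit of 0.5 TPM, and a single pair has both TCs at 10 TPM or more.

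Start positions within the paired TCs were dispersed. The span had a median of 27 bp for paired TCs, against 21 bp for the other TCs of the same stretches, and the summit position held a median of 32.0% of the tags, against 39.6%. Both medians kept this order in each range of level under 10 TPM when set against all other tested TCs. At 5 to 10 TPM the median share at the summit was 35.0% for 86 paired TCs and 47.7% for 2212 others, and the median span was 21 bp against 14 bp. At 10 to 50 TPM and above the order turned round, and at 50 TPM or more the TCs had a median summit share of 73.7% in 33 paired TCs and 41.7% in 2884 others. These differences were not tested. Of 1875 paired TCs with at least 10 tags in each group, 71.8% had their summit at the same base in libraries labelled control and libraries labelled exosome knockdown, and 81.0% had it within 5 bp.

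Many convergent pairs had further start sites beside them. In 690 pairs (60.3%) a further TC of at least 0.5 TPM lay in a divergent arrangement within 300 bp of 1 of the paired TCs, and in the other 454 pairs none did. This was a minus TC to the left of the plus TC in 260 pairs and a plus TC to the right of the minus TC in 568 pairs, and 138 pairs had both. The rule itself sets part of this asymmetry, since a minus TC closer on the left would have become the nearest. The arms 2L and 3L held 577 and 567 pairs, or 26.2 and 24.7 pairs per Mb. Of the 1144 pairs, 423 (37.0%) lay in 59 windows of 10 kb with at least 5 pairs, while 193 windows held a single pair. Pairs that share a minus TC lie close together, and 233 minus TCs had several plus TCs. The spread of all TCs of that level over such windows was not examined.

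The study asked which RNAs are removed by the exosome, and the same question was put to the paired TCs with edgeR's quasi-likelihood test over all 39028 TCs (Benjamini-Hochberg adjusted p under 0.05). Over all TCs tested, 29.4% were higher and 19.4% were lower in libraries labelled control than in libraries labelled exosome knockdown. Among the 1957 paired TCs, 569 were higher (29.1%), 361 were lower (18.4%) and 1027 passed in neither direction. Both shares were close to those over all TCs. In bulk libraries such as these, fewer cells that use a start site and less RNA per cell cannot be told apart. The median log2 fold change was 0.02 for paired TCs and 0.01 for all TCs tested, and setting the 5 paired TCs with no tag in libraries labelled exosome knockdown to a limit of 3 tags over the group left the median at 0.02. Exosome sensitivity, the share of the level in libraries labelled control that is missing from libraries labelled exosome knockdown, with negative values set to 0, had a median of 0.041 for paired TCs and 0.031 for all TCs. The median of the paired TCs depended on single libraries, with 0.062, 0.081 and 0 without replicate 1, 2 or 3 labelled control and 0.011, 0.023 and 0.098 without replicate 1, 2 or 4 labelled exosome knockdown. The sensitivity exceeded 0.75 for 373 paired TCs (19.1%) and for 18.4% of all TCs. It rests on the table match that puts the depletion in libraries labelled control, and with the groups turned the median was 0 for both sets and the value exceeded 0.75 for 47 paired TCs (2.40%) and for 3.10% of all TCs.

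The paired TCs took a smaller share of all tags in libraries labelled control, at 1.43% ± 0.065 (SD, n = 4), than in libraries labelled exosome knockdown, at 1.69% ± 0.142 (SD, n = 4), and the groups did not overlap. The 2 strongest paired TCs, at 3478435 and 2752804 on 2L, held 0.207% ± 0.0445 of all tags in libraries labelled control and 0.548% ± 0.0988 in libraries labelled exosome knockdown (SD, n = 4). Without them the direction turned, with 1.22% ± 0.0781 in libraries labelled control and 1.14% ± 0.149 in libraries labelled exosome knockdown (SD, n = 4), and the groups overlapped. The median over all members was likewise higher in libraries labelled control. The median level of the paired TCs was 1.102, 0.998, 1.23 and 1.17 TPM in the libraries labelled control, against 0.797, 0.804, 0.910 and 1.01 TPM in those labelled exosome knockdown. The 2 groups overlapped in this measure, by replicate 2 labelled control and replicate 4 labelled exosome knockdown. Both TCs reached 0.5 TPM in 808, 720, 848 and 917 pairs of the libraries labelled control and in 654, 670, 681 and 758 pairs of those labelled exosome knockdown. The groups overlapped in this count by the same 2 libraries. At least 1 tag on each strand was found for 1141 to 1144 of the 1144 pairs in a library labelled control and for 1073 to 1123 in a library labelled exosome knockdown. Finding a tag also depends on the depth of a library, and neither count was made for all TCs tested.

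Because a pair is defined by the mean over both groups, some TCs are members through 1 group alone. On group means, both TCs reached 0.5 TPM in both groups in 543 pairs, in libraries labelled control only in 370 pairs, in libraries labelled exosome knockdown only in 220 pairs and in neither group in 11 pairs. Of the TCs, 470 were under 0.5 TPM only in libraries labelled exosome knockdown and 221 only in libraries labelled control. TCs that are members through 1 group had to differ between the groups to that extent, and the counts of changed members include them.

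When both TCs of a pair were called, the calls mostly had the same direction. Both were higher in libraries labelled control in 248 pairs (21.7%), both were lower in 139 pairs (12.2%) and the calls were opposite in 12 pairs (1.05%). A single TC was called in 262 pairs (22.9%) and none in 483 (42.2%). These counts include pairs with a TC that is a member through 1 group alone, which had to differ between the groups. Both TCs were called the same way in 33.8% of all pairs. The share was 12.3% in the 543 pairs with both TCs at 0.5 TPM or more in both groups. There the order turned round, with 24 pairs both higher and 43 both lower, in a class chosen on the levels compared. Over all single TCs tested, 29.4% were higher and 19.4% lower. Those are shares of TCs and not of pairs, and shares of pairs in other arrangements are given below. Across the 1144 pairs the log2 fold changes of the plus and minus TCs had a Pearson r of 0.73 and a Spearman rho of 0.80, as a description, since the pairs come from the same 8 libraries and share minus TCs and neighbourhoods. When each minus TC was kept once, with its strongest plus TC, 813 pairs remained, of which 199 were both higher, 97 both lower and 8 opposite, with a Pearson r of 0.72. Among the 985 pairs whose TC spans did not overlap, 224 were both higher, 116 both lower and 10 opposite, and r was 0.72. The count of pairs with both TCs lower was 89 without replicate 1 labelled control.

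Pairs of other arrangements gave values of a similar kind. Of the 1301 divergent pairs, 22.9% were both higher, 11.1% both lower and 4.00% opposite, with a Pearson r of 0.64. Of the 6156 neighbours on a strand, 20.0% were both higher, 14.9% both lower and 0.520% opposite, with an r of 0.89. The median absolute difference between the log2 fold changes of the 2 TCs was 0.41 for convergent pairs, 0.66 for divergent pairs and 0.32 for neighbours on a strand. Convergent pairs lay between the other arrangements in all of r, this difference and the share of opposite calls, but levels differed too, with a median stronger TC of 1.70 TPM in convergent pairs, 4.11 TPM in divergent pairs and 2.18 TPM in neighbours on a strand. The arrangements share TCs, and no test of the differences between them was made.

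**Figure D3:**
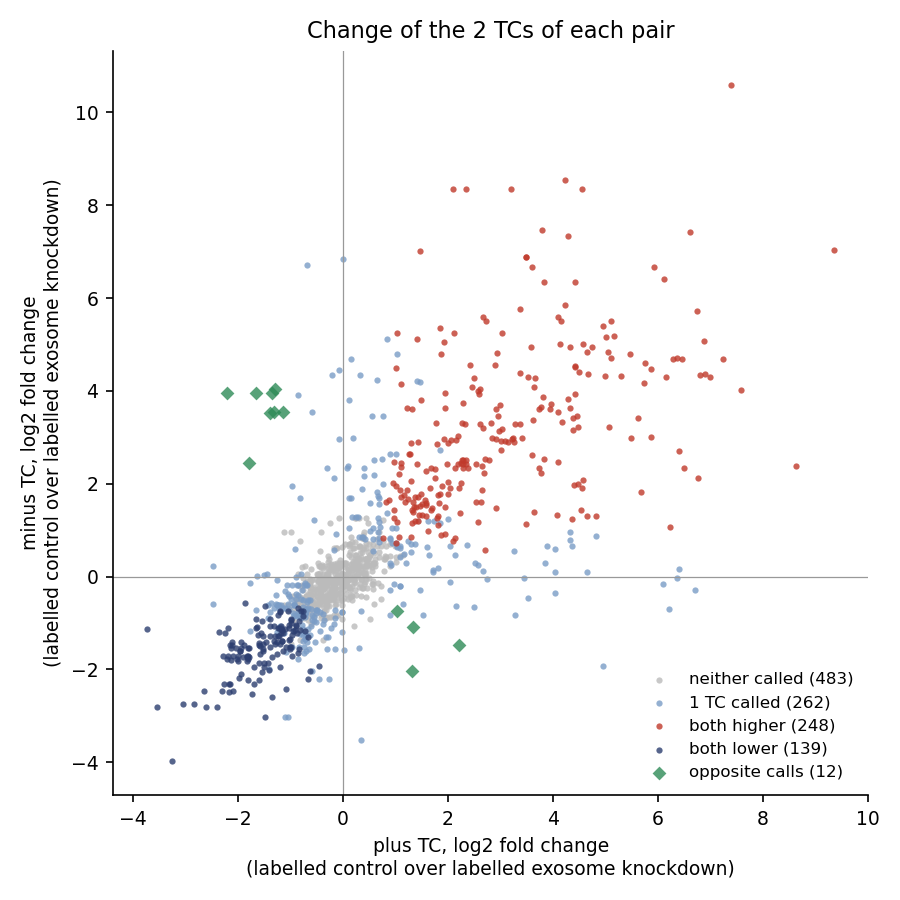
Log2 fold change (libraries labelled control over libraries labelled exosome knockdown) of the minus TC (vertical axis) against that of the plus TC (horizontal axis), 1 point for each of the 1144 pairs. Most points with both TCs called lie in the upper right (248 pairs) or lower left (139 pairs), and the 12 pairs with opposite calls are drawn as diamonds.

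The share of pairs with both TCs called the same way lay between 32.0% and 35.9% in 4 ranges of distance. It was 35.9% of 270 pairs at 20 to 59 bp, 32.0% of 206 pairs at 60 to 99 bp, 34.1% of 349 pairs at 100 bp to under 200 bp and 32.9% of 319 pairs at 200 to 300 bp. Pearson's r of the log2 fold changes was 0.83, 0.70, 0.71 and 0.70 over these ranges in the same order. The same-way share was 34.2% of the 690 pairs with a further divergent TC beside them and 33.3% of the other 454. By imbalance, the same-way share was 34.0% of 588 pairs with a ratio under 2, 34.6% of 468 pairs with a ratio of 2 to 10 and 28.4% of 88 pairs with a ratio of 10 or more. In those 88 unequal pairs the weaker TC was higher in libraries labelled control in 35.2% and the stronger TC in 23.9%, and r was 0.58. Over all TCs tested, 29.4% were higher. The weaker TCs of this class had a median of 0.857 TPM and the stronger TCs 24.5 TPM. A TC near the limit of 0.5 TPM can be a member through 1 group alone, so this contrast is not independent of the rule. On 2L 36.7% of pairs had both TCs called the same way and on 3L 30.9%, and 11 of the 12 opposite pairs were on 2L. Among the 543 pairs with both TCs at 0.5 TPM or more in both groups, a class chosen on the levels compared, 24 were both higher, 43 both lower and 2 opposite. The same-way share there was 12.3%, 359 pairs had no call, and r was 0.62.

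The pairs that were higher on both strands by the most were almost silent in libraries labelled exosome knockdown. Background shares of 29.4% higher and 19.4% lower apply to each TC named here and below. On 3L, the plus TC at 12258363 had 2.97, 2.29, 4.20 and 1.71 TPM in libraries labelled control, against 0, 0, 0 and 0.0547 TPM in libraries labelled exosome knockdown. Its partner 241 bp to the right, at 12258604, had 5.40, 4.78, 7.87 and 1.66 TPM in libraries labelled control, against 0 tags in all 4 libraries labelled exosome knockdown. The groups were far apart on both strands, although replicate 4 labelled control was the lowest of its group for both TCs. With 848 tags against a limit of 3 tags over the group, the minus TC was at least 250.5-fold higher in libraries labelled control. The plus TC had 477 tags against 2 tags, a ratio of 219.5 with an exact 95% interval of 60.4 to 1818 that covers counting error only (edgeR log2 fold change 7.39 ± 0.68 (SE), adjusted p = 1.11e-05).

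A stretch shorter than 1 kb on 3L held 2 further such pairs. The plus TC at 20773569 had 1.78, 1.103, 1.29 and 4.24 TPM in libraries labelled control and no tag in libraries labelled exosome knockdown, so that it was at least 106.9-fold higher against 3 tags over the group. The minus TC 238 bp away at 20773807 had 3.35, 1.97, 2.67 and 4.32 TPM in libraries labelled control, against 0.0228, 0, 0 and 0.0547 TPM in libraries labelled exosome knockdown. It had 507 tags in libraries labelled control and 3 tags in libraries labelled exosome knockdown (ratio 156, exact 95% interval 52.9 to 757). The next pair began at 20774094, where the plus TC had 5.24, 5.12, 4.61 and 4.24 TPM in libraries labelled control, against 0.0911, 0.0298, 0 and 0.0547 TPM in libraries labelled exosome knockdown (edgeR log2 fold change 6.61 ± 0.49, adjusted p = 4.23e-06). Facing it at 20774229, the minus TC had 6.75, 3.57, 5.99 and 4.18 TPM in libraries labelled control, against 0.0683, 0, 0 and 0.0273 TPM in libraries labelled exosome knockdown (edgeR log2 fold change 7.43 ± 0.58, adjusted p = 5.23e-06). Both strands of this pair were at nearly equal levels, 4.80 ± 0.465 and 5.12 ± 1.49 TPM (SD, n = 4) in libraries labelled control.

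The remaining pair of this kind lay on 3L between 8760703 and 8760963. Its plus TC had 1.39, 1.18, 1.08 and 0.842 TPM in libraries labelled control, against 0.0456, 0, 0 and 0 TPM in libraries labelled exosome knockdown (edgeR log2 fold change 6.11 ± 0.64, adjusted p = 2.24e-05). Its minus TC had 2.29, 2.86, 2.91 and 2.01 TPM in libraries labelled control, against 0.0456, 0, 0 and 0.0547 TPM in libraries labelled exosome knockdown (edgeR log2 fold change 6.41 ± 0.55, adjusted p = 7.7e-06). In all 4 pairs every library labelled control was above every library labelled exosome knockdown on both strands. The pairs were chosen for the size of their change and reached 0.5 TPM through libraries labelled control alone, so this separation is not independent of the choice.

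Among the pairs with both TCs lower, the named changes were smaller in size. The pair with the largest decrease of its less changed TC lay on 3L at 19600577 and 19600833. The plus TC had 0.0450, 0.184, 0.0647 and 0.245 TPM in libraries labelled control, against 1.39, 1.43, 1.20 and 0.902 TPM in libraries labelled exosome knockdown (edgeR log2 fold change -3.25 ± 0.48, adjusted p = 0.000229). The minus TC had 0.0225, 0.105, 0.0216 and 0.109 TPM in libraries labelled control, against 0.661, 1.01, 1.79 and 0.492 TPM in libraries labelled exosome knockdown (edgeR log2 fold change -3.98 ± 0.63, adjusted p = 0.000337). Both TCs kept a low number of tags in libraries labelled control, 21 on the plus and 10 on the minus strand.

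On 3L at 9069606 and 9069892, 286 bp apart, the means were 0.114 ± 0.107 TPM in libraries labelled control and 1.30 ± 0.480 TPM in libraries labelled exosome knockdown on the plus strand (SD, n = 4). On the minus strand they were 0.152 ± 0.109 TPM in libraries labelled control and 1.04 ± 0.220 TPM in libraries labelled exosome knockdown (SD, n = 4). The other 2 of these pairs share a minus TC on 3L at 20305644 and so are not independent. That minus TC had 0.337, 0.315, 0.172 and 0.435 TPM in libraries labelled control, against 1.50, 2.23, 2.05 and 2.49 TPM in libraries labelled exosome knockdown (edgeR log2 fold change -2.75 ± 0.35, adjusted p = 7.48e-05). The plus TCs facing it at 20305385 and 20305418 had log2 fold changes of -2.85 ± 0.54 and -3.04 ± 0.51 (SE, edgeR adjusted p = 0.00122 and 0.000531). No library overlapped between the groups for any TC of these 4 pairs, which again is not independent of the choice, since they reached 0.5 TPM through libraries labelled exosome knockdown alone.

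Opposite calls within a pair were rare and fell into few places. Of the 12 opposite pairs, 3 shared the minus TC on 2L at 3059363 and 2 shared the minus TC on 2L at 5983297. The minus TC at 3059363 had 1.73, 2.05, 2.16 and 1.87 TPM in libraries labelled control, against 0.251, 0.0596, 0.104 and 0.0547 TPM in libraries labelled exosome knockdown (edgeR log2 fold change 3.95 ± 0.43, adjusted p = 2.65e-05). Of the plus TCs facing it, the one at 3059187 had 0.112, 0.0788, 0.0862 and 0.571 TPM in libraries labelled control, against 0.843, 1.49, 0.598 and 0.738 TPM in libraries labelled exosome knockdown (edgeR log2 fold change -2.20 ± 0.62, adjusted p = 0.0124). The one at 3059273, only 90 bp from the minus summit, had 0.855, 1.21, 0.517 and 1.11 TPM in libraries labelled control, against 3.83, 2.80, 1.59 and 3.20 TPM in libraries labelled exosome knockdown (edgeR log2 fold change -1.65 ± 0.37, adjusted p = 0.00338). The strands thus moved apart within fewer than 200 bp, with no overlap between the groups for any of these TCs. The pairs were chosen for the size of their opposite changes. The minus TC at 3059363 reached 0.5 TPM through libraries labelled control alone. The plus TC at 3059187 reached it through libraries labelled exosome knockdown alone. The separation of the groups is therefore not independent of the choice.

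A strong start site took part in another opposite pair on 2L. The plus TC at 2752804, a single base, had 664, 605, 466 and 562 TPM in libraries labelled control, against 1878, 1770, 2645 and 1485 TPM in libraries labelled exosome knockdown (edgeR log2 fold change -1.79 ± 0.23, adjusted p = 7.5e-05). The minus TC 255 bp downstream at 2753059 had 1.66, 1.94, 2.76 and 2.28 TPM in libraries labelled control, against 0.752, 0.536, 0.130 and 0.0820 TPM in libraries labelled exosome knockdown (edgeR log2 fold change 2.45 ± 0.56, adjusted p = 0.00365). The facing TC was thus 5.77-fold higher where the strong TC was 3.39-fold lower. The facing TC reached 0.5 TPM through libraries labelled control alone, so its difference is not independent of the rule. The only opposite pair on 3L, at 7802020 and 7802220, had weak TCs, and each reached 0.5 TPM through 1 group alone. The plus TC averaged 1.36 ± 0.180 TPM in libraries labelled control and 0.283 ± 0.154 TPM in libraries labelled exosome knockdown, and the minus TC averaged 0.295 ± 0.196 TPM in libraries labelled control and 0.790 ± 0.186 TPM in libraries labelled exosome knockdown (SD, n = 4). For the minus TC the groups overlapped and the exact permutation test, two-sided, gave p = 0.0571 (the smallest that 4 against 4 allows is 0.0286), while edgeR called it (log2 fold change -1.47 ± 0.43, adjusted p = 0.0155).

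**Figure D4:**
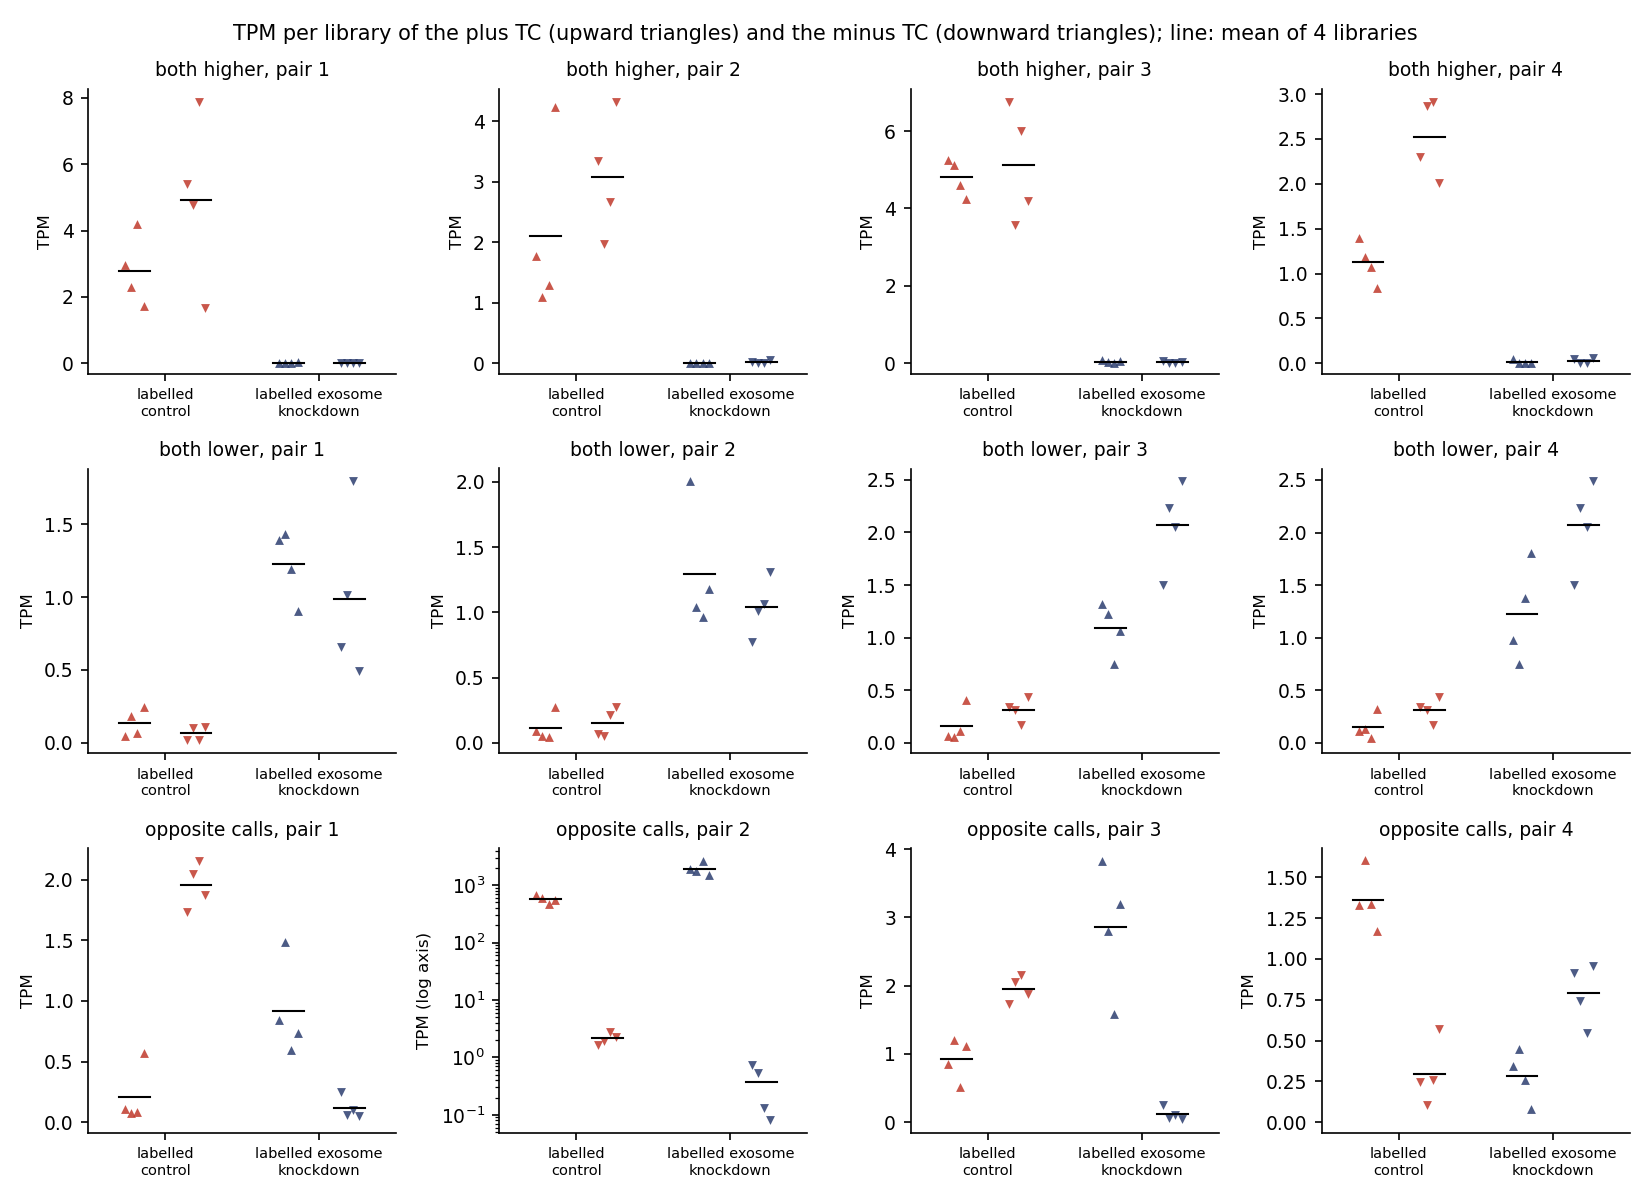
TPM of the plus TC (upward triangles) and the minus TC (downward triangles) in each library, labelled control left and labelled exosome knockdown right, with the mean of 4 libraries as a line, for the 4 pairs of each kind in order of their smaller change: both higher (upper row; at 12258363, 20773569, 20774094 and 8760703 on 3L), both lower (middle row; at 19600577, 9069606, 20305385 and 20305418 on 3L) and opposite calls (lower row; at 3059187, 2752804 and 3059273 on 2L and 7802020 on 3L). Vertical axes are linear except for the opposite pair at 2752804, drawn on a log axis; in the upper row all libraries labelled exosome knockdown lie at 0.0911 TPM or less.

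The pairs that were strongest on both strands showed mixed changes. On 3L, the TCs at 2599306 and 2599571 averaged 12.2 and 10.7 TPM over the 8 libraries, the only pair with both above 10 TPM. The plus TC, a single base, had 8.82, 7.01, 3.99 and 6.28 TPM in libraries labelled control, against 12.0, 16.8, 15.4 and 27.4 TPM in libraries labelled exosome knockdown (edgeR log2 fold change -1.48 ± 0.31, adjusted p = 0.0024). The minus TC had 9.78, 8.59, 8.04 and 7.50 TPM in libraries labelled control, against 12.9, 11.1, 16.9 and 10.5 TPM in libraries labelled exosome knockdown (edgeR log2 fold change -0.63 ± 0.21, adjusted p = 0.0296). The call of this minus TC was lost in 4 of the 8 fits that leave out a library, those without replicate 3 or 4 labelled control and without replicate 1 or 3 labelled exosome knockdown, with log2 fold changes of -0.49 to -0.64, and also when all TCs of 10 or more tags were tested (-0.62).

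On 3L at 681955 and 682058, both TCs were higher in libraries labelled control but to unequal degree. The plus TC had 11.1, 10.8, 11.7 and 11.0 TPM in libraries labelled control, against 2.19, 1.49, 1.64 and 1.31 TPM in libraries labelled exosome knockdown (edgeR log2 fold change 2.71 ± 0.23, adjusted p = 6.66e-06). The minus TC, 103 bp away, had 27.5, 33.1, 39.6 and 26.9 TPM in libraries labelled control, against 23.7, 19.4, 19.1 and 21.2 TPM in libraries labelled exosome knockdown (edgeR log2 fold change 0.57 ± 0.17, adjusted p = 0.017). The exosome sensitivity was 0.851 for the plus and 0.345 for the minus TC. The call of the minus TC was lost without replicate 3 labelled control (log2 fold change 0.49) and when all TCs of 10 or more tags were tested (0.58).

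On 2L at 5985140 and 5985174, only 34 bp apart, both TCs were lower in libraries labelled control. The plus TC had 2.18, 1.16, 5.11 and 5.03 TPM in libraries labelled control, against 6.29, 5.57, 9.65 and 9.05 TPM in libraries labelled exosome knockdown (edgeR log2 fold change -1.24 ± 0.40, adjusted p = 0.0252). Its call was lost without replicate 1 labelled control or without replicate 3 or 4 labelled exosome knockdown, with log2 fold changes of -1.09 to -1.17. The minus TC averaged 10.7 ± 2.41 TPM in libraries labelled control and 25.3 ± 6.63 TPM in libraries labelled exosome knockdown (SD, n = 4; edgeR log2 fold change -1.27 ± 0.25, adjusted p = 0.00148). On 3L the TCs at 1667613 and 1667721 had overlapping spans. The plus TC averaged 16.1 ± 3.46 TPM in libraries labelled control and 26.2 ± 10.2 TPM in libraries labelled exosome knockdown (SD, n = 4), and the groups overlapped. Its log2 fold change of -0.76 ± 0.31 did not pass (edgeR adjusted p = 0.0628), although it passed without replicate 4 labelled control (-0.90) or without replicate 1 labelled exosome knockdown (-0.99). The minus TC passed narrowly with -0.77 ± 0.29 (edgeR adjusted p = 0.0458), a call lost in 6 of the 8 fits that leave out a library, those without replicate 1, 3 or 4 labelled control and without replicate 2, 3 or 4 labelled exosome knockdown, with log2 fold changes of -0.62 to -0.83, and also when all TCs of 10 or more tags were tested (-0.73).

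In the most unequal pairs a strong start site faced a weak TC. On 2L the plus TC at 3478435 had 1572.5, 1925, 1010.0 and 1471 TPM in libraries labelled control, against 4759, 3236, 3245 and 2900.5 TPM in libraries labelled exosome knockdown (edgeR log2 fold change -1.26 ± 0.26, adjusted p = 0.00183). The minus TC facing it from 194 bp away had 0.270, 0.394, 0.0647 and 0.543 TPM in libraries labelled control, against 0.661, 1.04, 0.520 and 0.574 TPM in libraries labelled exosome knockdown, with overlap (edgeR log2 fold change -1.19 ± 0.53, adjusted p = 0.0838). It passed without replicate 4 labelled control (-1.55). The mean of the strong TC was 4944-fold that of its partner over the 8 libraries. On 2L at 9387661, a TC of 737 ± 122 TPM in libraries labelled control and 1115 ± 163 TPM in libraries labelled exosome knockdown (SD, n = 4; edgeR log2 fold change -0.63 ± 0.17, adjusted p = 0.00972) faced a minus TC at 9387768 of 0.445 ± 0.417 TPM in libraries labelled control and 0.598 ± 0.219 TPM in libraries labelled exosome knockdown (edgeR adjusted p = 0.569).

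A strong minus TC on 2L at 12423431 was faced by several weak plus TCs. It had 956, 843, 967 and 804 TPM in libraries labelled control, against 839, 849, 620.1 and 489 TPM in libraries labelled exosome knockdown, with overlap and no call (edgeR log2 fold change 0.30 ± 0.21, adjusted p = 0.266). The plus TC at 12423361, 70 bp away, had 2.63, 2.73, 2.41 and 0.571 TPM in libraries labelled control, against 0.114, 0.209, 0.104 and 0.137 TPM in libraries labelled exosome knockdown (edgeR log2 fold change 3.85 ± 0.55, adjusted p = 0.000161). The plus TC at 12423335, 96 bp away, had 0.765, 0.735, 1.38 and 0.706 TPM in libraries labelled control, against 0.0683, 0.298, 0.0780 and 0.164 TPM in libraries labelled exosome knockdown (edgeR log2 fold change 2.52 ± 0.49, adjusted p = 0.00133). The weak TCs facing this start site were thus 14.8-fold and 5.90-fold higher in libraries labelled control, while the strong TC was 1.28-fold higher with groups that overlapped. Both weak TCs reached 0.5 TPM through libraries labelled control alone, so their difference is not independent of the rule.

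In the 2 pairs named for the shortest and the longest distance no clear change was measured. The closest summits with the strongest weaker TC were 20 bp apart on 3L at 3404185 and 3404205, where the plus TC spanned the whole minus TC. These TCs had 7.90 ± 0.919 TPM in libraries labelled control and 9.40 ± 0.930 TPM in libraries labelled exosome knockdown on the plus strand (SD, n = 4; edgeR log2 fold change -0.30 ± 0.19, adjusted p = 0.216). On the minus strand they had 1.07 ± 0.161 TPM in libraries labelled control and 1.20 ± 0.473 TPM in libraries labelled exosome knockdown (SD, n = 4; edgeR log2 fold change -0.18 ± 0.32, adjusted p = 0.671). The farthest summits, 300 bp apart on 2L at 7035952 and 7036252, had a plus TC of 0.248 ± 0.199 TPM in libraries labelled control and 0.840 ± 0.602 TPM in libraries labelled exosome knockdown (SD, n = 4; edgeR log2 fold change -1.77 ± 0.67, adjusted p = 0.0484). That call was lost in 6 of the 8 fits that leave out a library, those without replicate 1, 3 or 4 labelled control and without replicate 1, 2 or 4 labelled exosome knockdown, with log2 fold changes of -1.28 to -1.85. The minus TC there had a log2 fold change of -0.15 ± 0.34 (edgeR adjusted p = 0.753).

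The members at the edge of the rule were as follows. Just inside the limit of 0.5 TPM, the plus TC on 3L at 6199108 averaged 0.501 TPM over the 8 libraries. It faced a minus TC of 0.794 TPM at 6199145, and their spans overlapped. The minus TC on 3L at 22942076 also averaged 0.501 TPM and faced a plus TC of 8.10 TPM at 22941855. Just outside the limit, the minus TC on 2L at 18705072 fell short of 0.5 TPM only after the third decimal place and faced plus TCs of 1.78 TPM at 18704915 and 0.700 TPM at 18704989. The pair at 22941855 differed widely between the groups. The plus TC had 15.8, 11.0, 21.3 and 15.8 TPM in libraries labelled control, against 0.410, 0.387, 0.0520 and 0.137 TPM in libraries labelled exosome knockdown. The minus TC had 1.01, 0.814, 1.40 and 0.761 TPM in libraries labelled control and a single tag among the libraries labelled exosome knockdown. This minus TC passed the limit through libraries labelled control alone.

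Some windows held pairs with calls in a single direction. In 4 windows of 10 kb with at least 5 pairs all pairs were higher on both strands, and in 2 all pairs were lower on both strands. Of the 59 such windows, 19 held pairs that were both higher and none both lower, 12 held pairs that were both lower and none both higher, 4 held both kinds and 24 held neither kind. No such count was made for windows of other TCs. Neighbours on a strand also changed alike (Pearson r 0.89), so single directions are not particular to convergent pairs. The windows described here were chosen by their number of pairs and their uniform calls, after these values were seen, and are given with no test. Most TCs in the windows beginning at 870862, 19552557 and 19071486 reached 0.5 TPM through libraries labelled control alone. Most in the window beginning at 3060284 reached it through libraries labelled exosome knockdown alone. The uniform calls are not independent of this.

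On 2L between 870862 and 873530, 8 pairs made of 13 TCs were all higher on both strands. Their summed level was 30.6, 31.6, 38.8 and 23.1 TPM in libraries labelled control, against 1.87, 2.74, 2.96 and 2.13 TPM in libraries labelled exosome knockdown, a 12.8-fold difference of the means. The log2 fold changes of the TCs ran from 2.96 to 5.02. On 2L between 19552557 and 19553880, 8 further pairs were all higher on both strands within a narrow range, with log2 fold changes of 1.99 to 2.53. Their 11 TCs summed to 25.03, 18.8, 42.0 and 23.4 TPM in libraries labelled control, against 5.10, 4.71, 5.56 and 6.04 TPM in libraries labelled exosome knockdown.

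On 3L between 19071486 and 19078885, 10 of 11 pairs were higher on both strands. The 17 TCs summed to 65.4, 67.5, 106.2 and 35.5 TPM in libraries labelled control, against 4.35, 4.59, 4.89 and 3.69 TPM in libraries labelled exosome knockdown, a 15.7-fold difference of the means. The libraries labelled exosome knockdown stayed close to each other here, while replicates 3 and 4 labelled control were the extremes of their group. In the remaining pair, the plus TC at 19076351 rose with a log2 fold change of 6.11, while the minus TC 252 bp away at 19076603 had 0.86 TPM in libraries labelled control and 0.93 TPM in libraries labelled exosome knockdown.

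The reverse was seen on 2L between 3060284 and 3066276, where all 15 pairs were lower on both strands. Their 23 TCs summed to 11.6, 10.5, 8.21 and 13.4 TPM in libraries labelled control, against 38.2, 39.7, 52.8 and 33.9 TPM in libraries labelled exosome knockdown. The log2 fold changes ran from -2.30 to -1.47, and this window begins less than 1 kb from the opposite pairs at 3059363. On 2L between 1146027 and 1146584, all 6 pairs were lower on both strands, with log2 fold changes of -2.14 to -1.54. The window with the most pairs, 21 pairs of 30 TCs on 2L between 5031295 and 5036787, had no pair with both TCs called. Its TCs summed to 71.5 ± 19.1 TPM in libraries labelled control and 90.2 ± 18.9 TPM in libraries labelled exosome knockdown (SD, n = 4), and the groups overlapped.

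**Figure D5:**
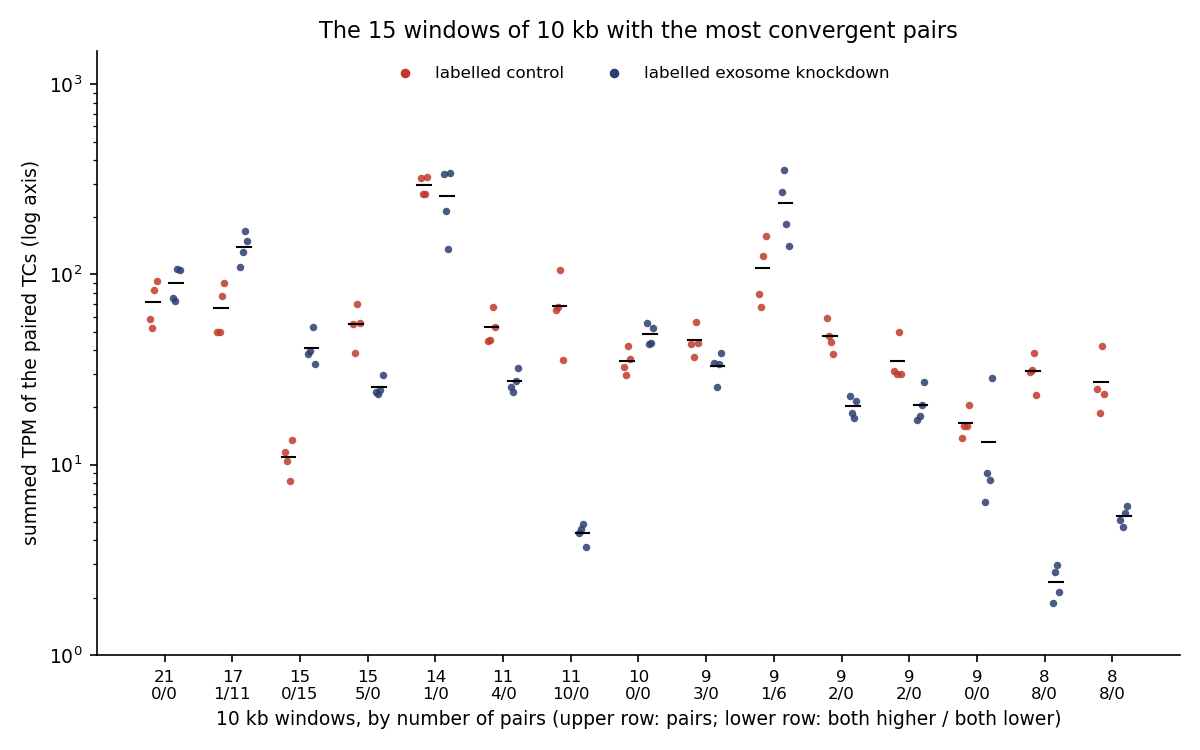
Summed level of the paired TCs (vertical axis, TPM, log scale) in each library, labelled control left and labelled exosome knockdown right, with the mean of 4 libraries as a line, in the 15 windows of 10 kb with the most pairs (horizontal axis, labelled with the number of pairs and, below it, those with both TCs higher and both lower). The groups lie far apart in the window with 10 of 11 pairs both higher and, in the other direction, in the window with 15 of 15 pairs both lower, and they overlap in the window with 21 pairs.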

How the data were processed

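The data are CAGE tags from 8 S2 cell libraries in 2 groups of 4. The deposited files give, for each base and strand of dm3, the raw count of tags whose 5′ end maps there. Per the study's methods, the authors trimmed linkers, required Q30 in 50% of bases and mapped with Bowtie 1.1.1, with at most 2 mismatches and unique hits. No duplicate removal is described, so a tag need not be a separate molecule, and the intervals include counting error alone. Reads from copies of repeated sequence are absent by the unique mapping.

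On each strand, bases holding 2 or more tags in any single library were joined when no more than 20 bp apart. Positions under 0.1 of the summit's pooled tags were dropped, and the rest was merged again. TPM is a tag count scaled to a library total of 1000000. Where positions tied for the summit, the middle one was taken. Each library was matched to a column of the study's expression table by the tag total that turns its values into whole tags, within 0.01 tags. Changes were tested on counts with edgeR 4.0.16 (quasi-likelihood, TMM factors of 0.905 to 1.07, R 4.3.3, limma 3.58.1) over all 39028 TCs of at least 0.5 TPM, with Benjamini-Hochberg adjustment. DESeq2 1.42.0 and other settings were alternatives. Single TCs were also compared by an exact permutation test of 4 against 4 libraries. Other software was matplotlib 3.10.9, scipy 1.17.1, pandas 2.3.3, numpy 2.4.6 and Python 3.11.15. Tests were checked on simulated data. Libraries of a group differed by a chi-square of 20.1 to 88.5 per degree of freedom, so none were copies.

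Named pairs are the 4 with the highest weaker TC, the 4 each with both TCs higher, both lower or opposite with the largest smaller change, the 4 most unequal, the shortest, the longest, and the 2 on each side of the limit of 0.5 TPM. The members, the rule and the lists were chosen with earlier results of these data known. Arms and chromosomes other than 2L and 3L entered the fit only. The study's list of open regions was held only in part and was not used.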

Additional observations from a re-analysis of the deposited data

Results flagged for a closer look

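In 110 groups of 4 libraries examined (the 2 groups for each named TC and for each measure per library), 8 had a highest or lowest library far from the other 3, where chance alone marks about 1 in 20. Replicate 4 labelled control was the one apart in 4 of them. It had the highest level of the plus TC on 3L at 20305385 (0.408 TPM), of the plus TC on 2L at 3059187 (0.571 TPM) and of the minus TC on 3L at 6199145 (0.842 TPM), and the lowest of the plus TC on 2L at 12423361 (0.571 TPM). Replicate 3 labelled control had the highest level of the plus TC on 2L at 12423335 (1.38 TPM). The other 3 lie at the level of 1 or 2 tags, in libraries labelled exosome knockdown. They are 0.0547 TPM in replicate 4 for the plus TC on 3L at 12258363, 0.0456 TPM in replicate 1 for the plus TC on 3L at 8760703 and 0.0228 TPM in replicate 1 for the minus TC on 3L at 22942076.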

How the results depend on the processing

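The number of pairs depended most on how the nearest TC is read. It was 244 when TCs of any level could be the nearest, 624 for mutually nearest pairs, 447 at 1 TPM and 627 when both TCs had to reach 0.5 TPM in each group. It was 1487 when the nearest TC was sought to the right only, 1124 with tags pooled before the minimum of 2, 1018 without trimming, and 1130 to 1213 when a library was left out. The counts of TCs and pairs that changed stayed within 1.5 times under edgeR with RLE or library totals, DESeq2 and the replicate block. With all TCs of at least 10 tags tested, 61935 of 253238 TCs passed, against 19040 of 39028, and 856 of the paired TCs passed. Leaving out a library gave 89 to 134 pairs with both TCs lower, 221 to 248 with both higher and 8 to 15 with opposite calls. The median exosome sensitivity of the paired TCs ran from 0 to 0.098 when a library was left out and was 0.012 over TMM library sizes. In alternatives chosen after the data were seen, it was 0 with the groups turned, and the difference in the share of tags in paired TCs (labelled control minus labelled exosome knockdown) was 0.081 percentage points without the 2 strongest paired TCs, against -0.26 with them.

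Same-numbered libraries deviated together with r of 0.087, 0.184, 0.252 and 0.398, and since 1 of the 4 lay under 0.1 the numbers were not taken as a pairing. As a hint from the data, every library labelled exosome knockdown correlated best with its own number, and so did each library labelled control except replicate 1, which was closer to replicate 3 labelled exosome knockdown (0.106). With the replicate block 588 paired TCs were higher and 394 lower, 255 pairs both higher, 149 both lower and 14 opposite. It ended the call of the minus TC at 1667721 (log2 fold change -0.73) and gave one to the minus TC at 3478629 (-1.30). The named TCs gave 585 values under the alternatives. Of these, 555 stayed on their side of the threshold, 24 lost the call, 4 gained it and 2 changed sign, both in TCs without a call. Leaving out a library gave log2 fold changes of -0.34 to 0.0887 for the minus TC at 7036252, with the change of sign without replicate 2 labelled exosome knockdown, and of -0.32 to 0.0151 for the minus TC at 3404205, with the change of sign without replicate 4 labelled exosome knockdown. Depth limits the TCs near 0.5 TPM most, where a library holds about 16.8 to 23.2 tags. The cause of these differences was not tested.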
